A study of Mus musculus with 15 samples.

Results

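The genes described here drive the passage of a cell from G1 into S phase and copy its DNA. They are 47 listed mouse genes of 27179 in the deposited count table: the D and E cyclins with their kinases (9 genes), the E2F factors and pocket proteins (7), the origin licensing factors (5), the subunits of the replicative helicase and their partners (10), the enzymes of the fork (8), the suppliers of nucleotides (5), and the suppliers and loaders of histones (3). The symbols were matched to the table through Entrez IDs, and all 47 had 1 row each. RNA was sequenced from mouse CD4 T cells in 3 conditions, Th1, Th17 and Tfh (T follicular helper), with 5 libraries per condition. In every condition naive CD4 cells were activated on plates coated with antibodies to CD3 and CD28, held under polarising conditions for 3.5 days and sorted by flow cytometry. All 15 libraries came from the genotype B6.Cg-Ifngtm3.1Lky-Il17atm1.1Lky, with altered alleles of the cytokine genes Ifng and Il17a on a B6 background, which the Th1, Th17 and Tfh cells all carry. The design text gives interferon gamma positive cells for Th1 and CXCR5 positive, IL-17A negative cells for Tfh, repeats that Tfh population and names no Th17 population. The sources used here do not give the Th17 gate, the cytokines of each culture, the age of the mice or the number of mice or cultures behind the libraries. The p-values therefore measure the spread between these libraries, which may be technical.

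As background, D-type cyclins pair with CDK4 and CDK6 and phosphorylate the retinoblastoma protein RB and its relatives, the pocket proteins, which then release E2F factors. E2F1, E2F2 and E2F3 activate genes of S phase, among them those of cyclin E, which pairs with CDK2, whereas E2F7 and E2F8 repress the same genes later. Replication origins are marked by the origin recognition complex, on which CDC6 and CDT1 load the MCM2-7 ring. CDC45 and the GINS complex turn the loaded ring into the active helicase, with MCM10 as a partner, and polymerases, the sliding clamp PCNA and its loader RFC follow it. Activated T cells divide fast in the first days after stimulation, and lymphocytes use mainly cyclins D2 and D3.

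E2F-type letters lie close to the start of many of these genes, and stretches that hold them are shown here because the factors that bind such letters are themselves among the genes measured. RefSeq promoter windows on GRCm38.p6, which run from 250 bases before to 50 after a transcription start, were given for 38 of the 47 genes. An 8-base E2F-type match, TTTGGCGC or TTTCGCGC on either strand, lay in the windows of 12 of those 38 genes (31.6%). The same letters lay in 1.90% of the 9626 genes tested that had a window and in 0.813% of all 32851 windows. The shorter match TTGGCGC or TTCGCGC, which every 8-base match contains, was present in 16 of the 38 (42.1%), against 8.39% of genes tested. The 12 genes were Cdc25a, E2f2, Rbl1, Orc1, Cdt1, Mcm3, Mcm5, Mcm6, Mcm7, Rfc3, Pola1 and Lig1. Stretches upstream of the start that defines the window are given for 7 of them, and for the repressors E2f7 and E2f8, which held only the 7-base match. The stretches of Orc1, E2f8 and Pola1 lie inside the annotated span of the gene, and that of Cdc25a lies partly inside it. Capitals mark every 8-base match in the stretches of those 7 genes and the 7-base match in E2f7 and E2f8. Each sequence reads 5′ to 3′ on the strand of its gene, and a match describes letters, not binding.
Cdc25a (chr9:109875489-109875548, plus strand): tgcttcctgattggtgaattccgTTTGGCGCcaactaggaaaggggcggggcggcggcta
E2f7 (chr10:110745319-110745378, plus strand): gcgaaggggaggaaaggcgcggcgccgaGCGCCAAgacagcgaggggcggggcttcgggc
E2f8 (chr7:48881677-48881736, minus strand): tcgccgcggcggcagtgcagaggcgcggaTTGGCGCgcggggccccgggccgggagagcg
Rbl1 (chr2:157204535-157204594, minus strand): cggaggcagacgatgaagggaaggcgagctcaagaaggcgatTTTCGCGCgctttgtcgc
Orc1 (chr4:108579394-108579453, plus strand): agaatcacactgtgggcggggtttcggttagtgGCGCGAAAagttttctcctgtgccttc
Mcm5 (chr8:75109324-75109383, plus strand): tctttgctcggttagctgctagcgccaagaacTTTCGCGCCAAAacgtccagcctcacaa
Mcm6 (chr1:128359736-128359830, minus strand): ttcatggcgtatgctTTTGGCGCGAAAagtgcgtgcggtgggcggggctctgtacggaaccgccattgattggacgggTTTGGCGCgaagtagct
Rfc3 (chr5:151651209-151651268, minus strand): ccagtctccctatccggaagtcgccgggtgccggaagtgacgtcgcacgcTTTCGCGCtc
Pola1 (chrX:93632266-93632325, minus strand): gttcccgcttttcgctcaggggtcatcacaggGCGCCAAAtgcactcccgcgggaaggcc

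In Mcm5 2 8-base matches on opposite strands overlapped in a single run, and the Mcm6 stretch of 95 bases held 3 such matches in 2 places. The stretches of Cdc25a, Mcm5 and Mcm6 hold a further 7-base match each, left in lower case where the capitals do not cover it. Among 24 genes of G2 and mitosis with a window, 0 held the 8-base match and 2 the 7-base one, which is 8.33%. The letters TTTGAA, part of the CHR element known from many mitotic genes, lay in 16 of those 24 (66.7%) but in 6 of the 38 G1/S and replication genes (15.8%) and in 14.2% of genes tested. CCAAT, a box of many proliferation genes, lay in 24 of the 38 (63.2%), in 18 of the 24 (75%) and in 43.2% of genes tested. All 7 helicase genes with a window held it. None of the 5 nucleotide genes (Rrm1, Rrm2, Tyms, Tk1 and Dut) had either E2F match in its window, and other forms of E2F site were not searched. The 12 genes with the 8-base match had a median log2 fold change of -0.51 in Tfh against Th17, and the 26 without it had -0.79. Of these, 8 and 18 were called lower in Tfh by the edgeR test described below, against 9.98% of all genes tested. The difference between genes with and without the match was not tested.

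Libraries held 4871468 to 25200382 counts, with a median of 10501581, and the shallowest was Tfh replicate 1. The markers of T cells (Cd3e, Cd3d, Cd3g, Cd4 and Cd28) summed to 2592 to 5184 CPM, counts scaled to a common library size with TMM factors. The 3 Th1 markers (Ifng, Tbx21 and Il12rb2) summed to 2426 to 2870 CPM in Th1 and to at most 77.1 elsewhere. The 3 Th17 markers summed (Il17a, Il17f and Il23r) were highest in Th17, at 10653 to 12281, but also high in Tfh, at 3613 to 5372, against 17.0 to 62.2 in Th1. The 4 Tfh markers (Cxcr5, Bcl6, Maf and Pdcd1) were highest in Tfh, at 1617 to 2407, with 853 to 1202 in Th17 and 49.6 to 91.6 in Th1. All genes of these lists had counts, and the part of this overlap between Th17 and Tfh in the results was not tested. Summed CPM of 4 B cell markers reached at most 2.59, of 6 myeloid markers 3.09, of 3 NK markers 0.740 (Klra8 and Ncr1 at 0) and of 4 erythroid markers 0.398 (3 at 0), while the 2 CD8 genes ran from 5.22 to 26.1.

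The 47 genes were highest in Th17 cells and lowest in Tfh cells as a group. They took 0.733 ± 0.0433% of all counts in Th17, 0.630 ± 0.0418% in Th1 and 0.528 ± 0.0276% in Tfh (SD, n = 5 here and below). The Tfh libraries lay between 0.491 and 0.556%, below all 10 others, and the Th1 and Th17 libraries overlapped. By condition means, 20 genes ranked Th17, Th1, Tfh from high to low, 13 ranked Th17, Tfh, Th1 and 11 ranked Th1, Th17, Tfh. The other orders were held by 3 genes: Ccnd1 and Ccnd2 (Th1, Tfh, Th17) and Rb1 (Tfh, Th17, Th1). In bulk RNA, fewer cycling cells and less RNA of these genes per cell cannot be told apart.

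All 47 genes passed the filter on low counts and were tested with edgeR's quasi-likelihood test, with p-values adjusted over 12591 genes and calls at an adjusted p under 0.05. Between Tfh and Th17 cells, 32 of the 47 fell in Tfh and 15 did not pass, against 9.98% of all genes tested that fell and 6.80% that rose, 16.8% in all. None of the 47 rose, with 1 at an unadjusted p under 0.05, 1 call with DESeq2 and 0 with limma-voom. The 32 fell by 1.42-fold to 2.65-fold, 12 of them by 2-fold or more, and the median over the 47 was -0.72 on the log2 scale, against -0.01 over all genes tested. Between Th17 and Th1 cells, 17 rose in Th17, 3 fell and 27 did not pass, where 19.0% of all genes rose and 17.8% fell, 36.9% in all. The median was 0.28, against 0.03 over all genes. Between Tfh and Th1 cells, 4 rose in Tfh, 21 fell and 22 did not pass, where 24.1% of all genes rose and 25.2% fell, 49.3% in all. Only 2 rose without Th1 replicate 2, and also 2 in a fit of these 2 conditions alone. Here the median was -0.40, against -0.01 over all genes.

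The libraries of Tfh and Th17 did not overlap for 26 of the 47 genes, all lower in Tfh, against 8.72% of all genes lower and 5.74% higher without overlap. Between Tfh and Th1 this held for 16 genes lower and 2 higher in Tfh (18.2% and 16.1% of all genes). Between Th17 and Th1 it held for 13 higher and 3 lower in Th17 (14.5% and 14.3%). The 3 comparisons share libraries, so each is read on its own. Without Tfh replicate 1, 30 genes fell from Th17 to Tfh, 20 fell and 5 rose from Th1 to Tfh, and 19 rose and 4 fell from Th1 to Th17.

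**Figure D1:**
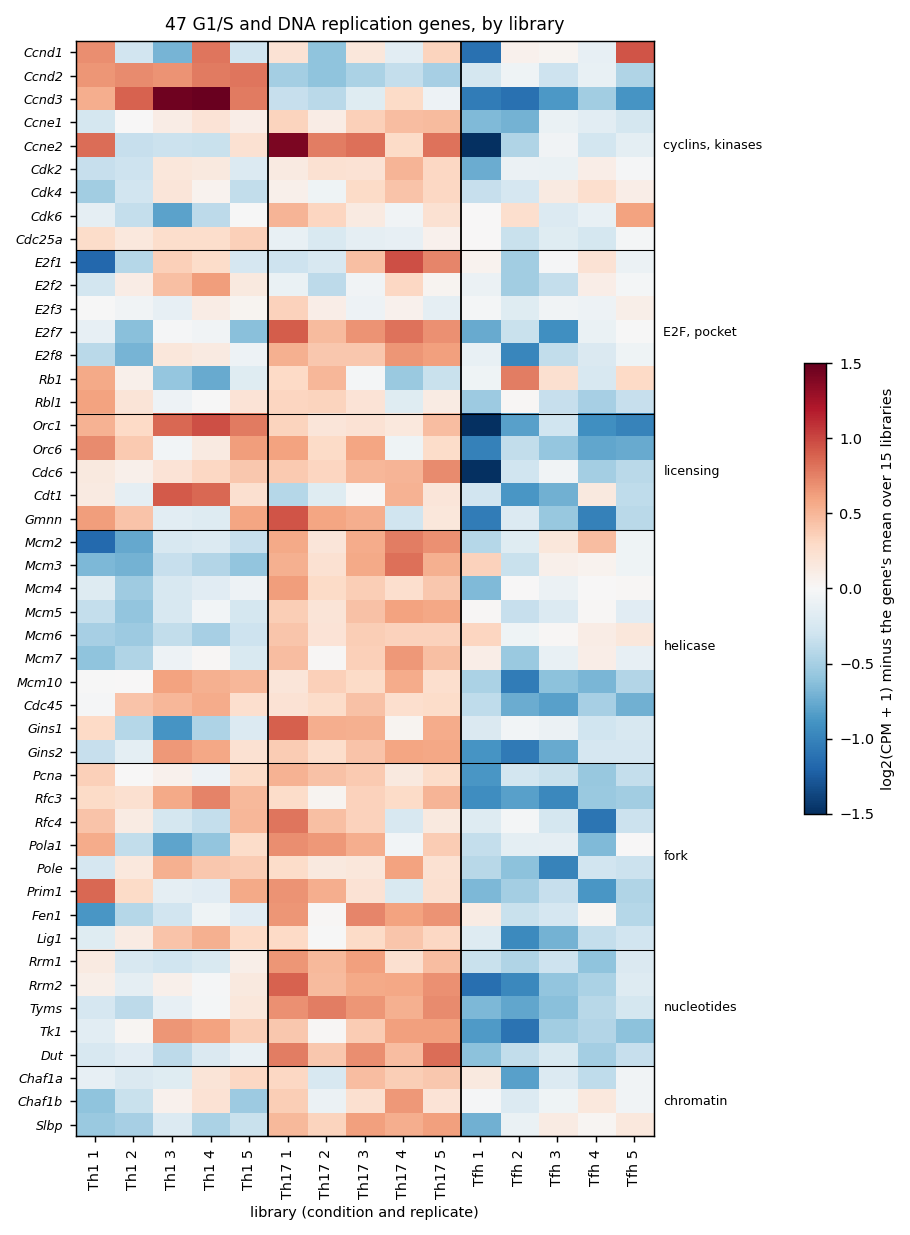
Level of each of the 47 genes (rows, grouped by role) in each of the 15 libraries (columns), as log2(CPM + 1) minus the mean of the gene over all libraries, with colours stopping at 1.5 either way. Ccnd2 and Ccnd3 are red in Th1, Mcm2 to Mcm7 are blue in Th1, and most rows are blue in Tfh.

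**Figure D2:**
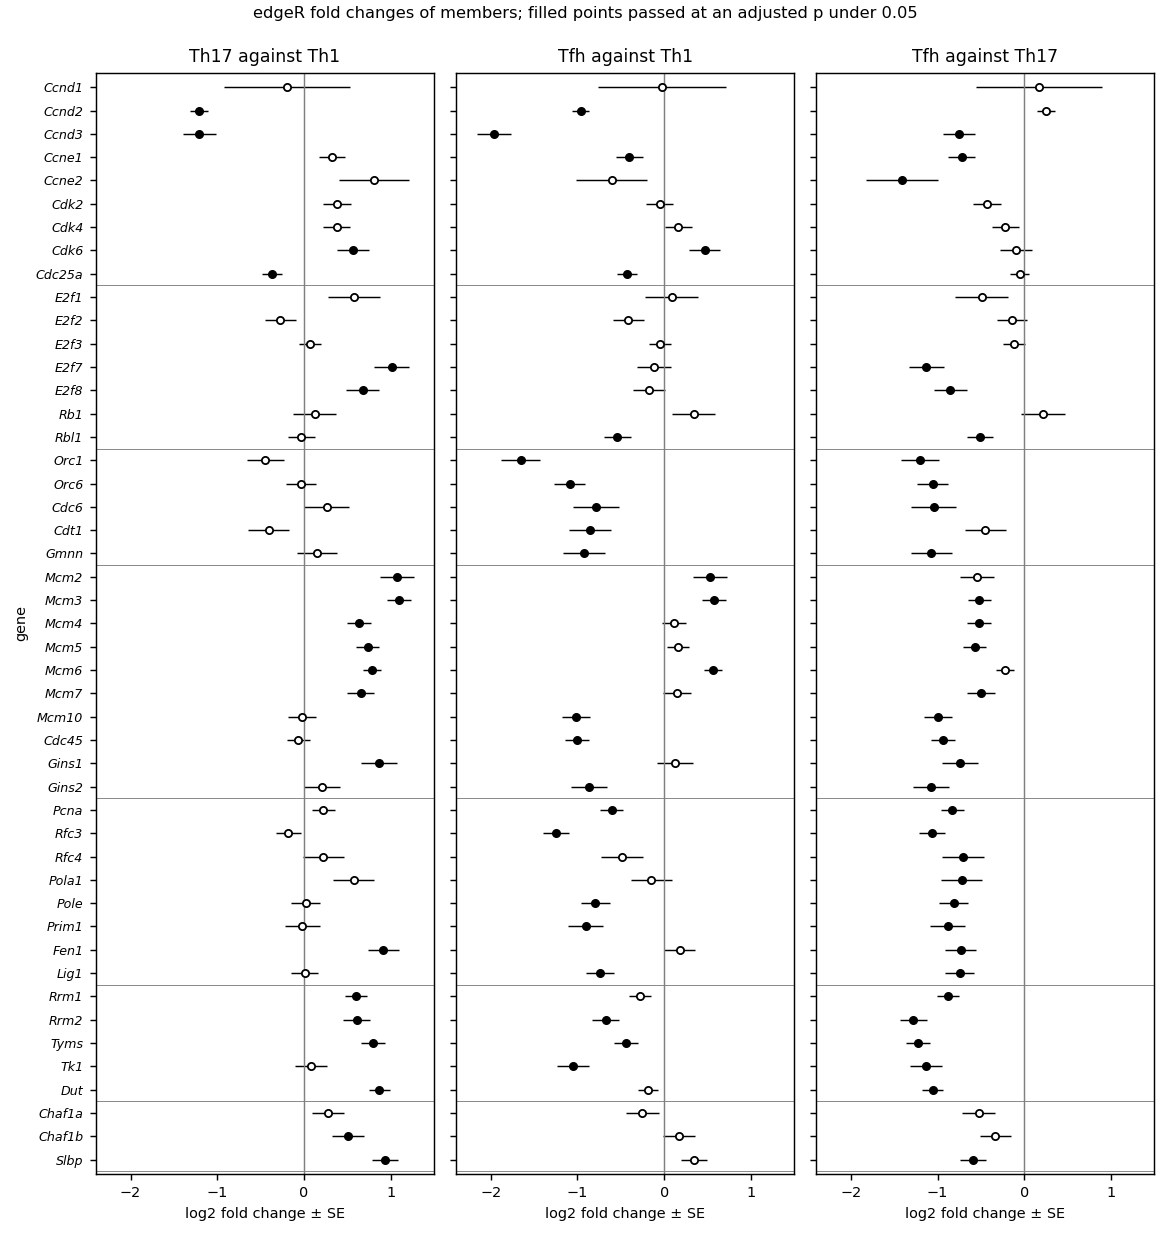
Log2 fold changes (points) with standard errors (bars) of the 47 genes in each comparison, from the edgeR fit to all 15 libraries. Filled points passed at an adjusted p under 0.05: 20 in Th17 against Th1, 25 in Tfh against Th1 and 32 in Tfh against Th17, the last all to the left of 0.

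The genes of cyclins D2 and D3 had their highest levels in Th1, against most other genes of the set. Ccnd2 (gene ID 12444; chromosome 6, 127125162 to 127152188), which encodes cyclin D2, was at 1041, 1082, 1053, 1136 and 1154 CPM in the Th1 libraries, 464, 434, 476, 515 and 466 in Th17 and 550.4, 630.2, 533, 609 and 482 in Tfh. All 5 Th1 libraries lay above all 10 others, and the Th17 and Tfh values overlapped. Ccnd2 fell 2.32-fold in Th17 (log2 fold change -1.22 ± 0.10, edgeR adjusted p = 2.11e-08) and 1.95-fold in Tfh (log2 fold change -0.96 ± 0.10, edgeR adjusted p = 2.86e-07) against Th1. Tfh and Th17 differed by 0.25 ± 0.10 (edgeR adjusted p = 0.0993), which did not pass, but passed with DESeq2 (adjusted p = 0.0165), the strict filter (edgeR adjusted p = 0.0405) and a correction for GC content (edgeR adjusted p = 0.0217).

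Ccnd3 (gene ID 12445; chromosome 17, 47505051 to 47599689), which encodes cyclin D3, was at 320.1, 404, 602, 614 and 377 CPM in the Th1 libraries, 172, 164, 193, 267 and 207 in Th17 and 105, 100.3, 120.0, 152 and 118 in Tfh. The 3 conditions did not overlap and stepped down from Th1 to Th17 to Tfh. Ccnd3 fell 2.31-fold in Th17 (log2 fold change -1.21 ± 0.19, edgeR adjusted p = 5.28e-05) and 3.90-fold in Tfh (log2 fold change -1.96 ± 0.19, edgeR adjusted p = 1.25e-07) against Th1, and 1.69-fold in Tfh against Th17 (log2 fold change -0.75 ± 0.19, edgeR adjusted p = 0.00943). The fold from Th1 to Tfh was the largest of any of the 47 genes in the 3 comparisons. Ccnd2 thus stood at 4.81 ± 0.955 counts per count of Ccnd3 in Tfh libraries, 2.52 ± 0.689 in Th1 and 2.40 ± 0.312 in Th17, a ratio chosen after the values were seen. Ccnd1 was nearly silent, at 1.43 ± 1.12 CPM in Th1 cells, 1.21 ± 0.530 in Th17 cells and 1.33 ± 1.14 in Tfh cells, with a count of 0 in Tfh replicate 1.

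The E cyclins had their highest means in Th17, though neither passed in Th17 against Th1 (edgeR adjusted p = 0.111 for Ccne1 and 0.134 for Ccne2). Ccne1 passed there with the GC correction (edgeR adjusted p = 0.0406), and Ccne2 in a fit of the 2 conditions alone (edgeR adjusted p = 0.0358) and without Th1 replicate 1 or Tfh replicate 1 (edgeR adjusted p 0.0441 and 0.0167). Ccne1 (gene ID 12447; chromosome 7, 38097984 to 38107490) was at 33.7, 41.0, 44.0, 46.9 and 43.5 CPM in the Th1 libraries, 51.6, 44.0, 52.2, 56.7 and 57.1 in Th17 and 25.3, 24.6, 38.0, 36.3 and 33.7 in Tfh. All Tfh libraries lay below all Th17 libraries, and Ccne1 fell 1.65-fold (log2 fold change -0.72 ± 0.15, edgeR adjusted p = 0.00292). Its fall from Th1 to Tfh (log2 fold change -0.40 ± 0.15, edgeR adjusted p = 0.0373) did not hold without any single one of Th1 replicates 2, 3, 4 and 5, and Tfh replicates 1 and 2 (edgeR adjusted p from 0.0545 to 0.0816). Ccne2 (gene ID 12448; chromosome 4, 11190433 to 11204779) was at 35.7, 15.2, 15.4, 15.3 and 23.0 CPM in the Th1 libraries, 53.7, 33.8, 35.3, 24.1 and 34.9 in Th17 and 1.16, 13.97, 18.8, 15.9 and 17.5 in Tfh. Every Th17 library lay above every Tfh library, and Tfh replicate 1 lay far below the other Tfh libraries. Ccne2 fell 2.65-fold in Tfh against Th17 (log2 fold change -1.41 ± 0.41, edgeR adjusted p = 0.0243), and the call was lost without Th17 replicate 1 (edgeR adjusted p = 0.0703). The ratio of summed D2 and D3 to summed E cyclin CPM, also chosen after the values were seen, was 25.01 ± 3.65 in Th1, 7.67 ± 1.31 in Th17 and 16.3 ± 5.61 in Tfh. Th17 overlapped neither Th1 nor Tfh in it. Only Tfh replicate 1, at 24.8 and with Ccne2 at 1.16 CPM, reached the Th1 range, which began at 19.6.

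Of the kinases, Cdk6 alone was called in the fit of all 15 libraries. Cdk6, a partner of D cyclins, was at 49.4, 42.0, 30.6, 41.0 and 53.8 CPM in the Th1 libraries, 77.2, 67.9, 59.6, 52.3 and 63.4 in Th17 and 54.5, 64.9, 46.9, 50.2 and 82.9 in Tfh. It rose 1.48-fold in Th17 (log2 fold change 0.56 ± 0.18, edgeR adjusted p = 0.0197) and 1.38-fold in Tfh (log2 fold change 0.47 ± 0.18, edgeR adjusted p = 0.0400) against Th1, while Th1 overlapped both. The first call was lost without any single one of Th1 replicates 3 and 4, and Th17 replicates 1 and 5 (edgeR adjusted p from 0.0515 to 0.0670). The second was lost without any single one of Th1 replicates 2, 3 and 4, Th17 replicates 3, 4 and 5, and Tfh replicates 2 and 5 (edgeR adjusted p from 0.0504 to 0.187). Cdk4, the other partner, was at 430.0 ± 89.3 CPM in Th1 cells, 559.8 ± 74.9 in Th17 cells and 481 ± 84.9 in Tfh cells. Cdk2, the partner of cyclin E, was at 122 ± 21.4 CPM in Th1 cells, 158 ± 16.3 in Th17 cells and 117 ± 23.7 in Tfh cells. Neither passed in that fit. Cdk4 in Th17 against Th1 (edgeR adjusted p = 0.0636) was called higher with limma-voom (adjusted p = 0.0498), library size only (edgeR adjusted p = 0.0440) and the GC correction (edgeR adjusted p = 0.00263). It was also called without either Th1 replicate 3 or Th17 replicate 2 (edgeR adjusted p 0.0293 and 0.0427). Cdk2 in Th17 against Th1 (edgeR adjusted p = 0.0652) was called higher with library size only (edgeR adjusted p = 0.0437), in a fit of the 2 conditions alone (edgeR adjusted p = 0.0453), and without Th1 replicate 3 or Tfh replicate 1 (edgeR adjusted p 0.0488 and 0.0244). The Tfh and Th17 libraries of Cdk2 did not overlap, and it was called lower in Tfh with the GC correction (edgeR adjusted p = 0.0413). Cdc25a, the phosphatase that activates CDK2, was at 97.1 ± 4.90 CPM in Th1 cells, 75.1 ± 5.76 in Th17 cells and 72.3 ± 7.45 in Tfh cells. It fell in Th17 (log2 fold change -0.37 ± 0.11, edgeR adjusted p = 0.0145) and in Tfh (log2 fold change -0.43 ± 0.11, edgeR adjusted p = 0.00435) against Th1, and the Th1 libraries lay above all others.

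**Figure D3:**
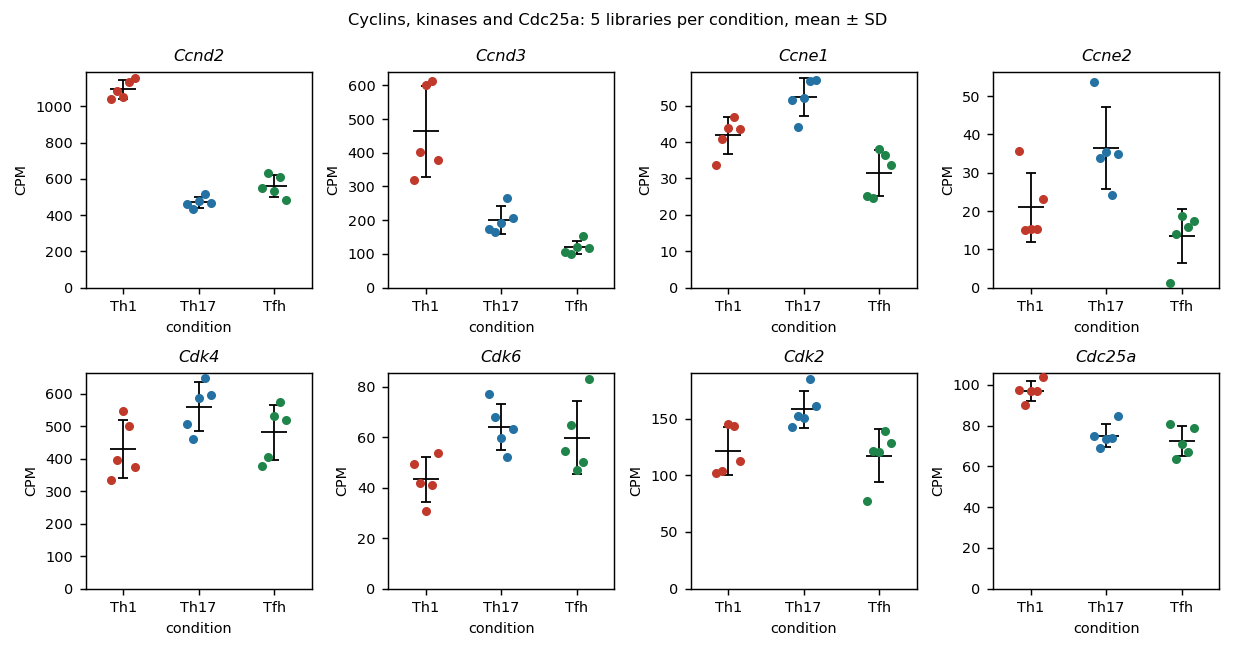
CPM of 8 cyclin, kinase and phosphatase genes in each of 5 libraries per condition (points), with mean and SD (bars). Ccnd2 and Ccnd3 stand highest in Th1, Ccne1 and Ccne2 stand highest in Th17, the conditions overlap for Cdk4 and Cdk6, and for Cdk2 the Tfh points lie just below the Th17 points.

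Among the E2F factors of the 47, the 2 repressors were called and the 3 activators did not pass in the fit of all 15 libraries as deposited. E2f7 (gene ID 52679; chromosome 10, 110745439 to 110787384) was at 26.3, 18.3, 28.4, 27.8 and 18.4 CPM in the Th1 libraries, 54.8, 40.4, 46.7, 51.5 and 47.01 in Th17 and 16.6, 22.7, 14.8, 26.9 and 28.6 in Tfh. E2f8 (gene ID 108961; chromosome 7, 48866429 to 48882073) was at 51.1, 41.4, 76.6, 74.7 and 64.2 CPM in the Th1 libraries, 98.5, 90.004, 90.7, 108 and 105 in Th17 and 62.8, 34.2, 52.2, 58.6 and 65.2 in Tfh. For both genes the 5 Th17 libraries lay above all 10 others, and the Th1 and Tfh values overlapped. E2f7 rose 2.01-fold in Th17 against Th1 (log2 fold change 1.01 ± 0.20, edgeR adjusted p = 0.000529) and fell 2.19-fold in Tfh against Th17 (log2 fold change -1.13 ± 0.20, edgeR adjusted p = 0.000650). E2f8 rose 1.596-fold (log2 fold change 0.67 ± 0.18, edgeR adjusted p = 0.00753) and fell 1.80-fold (log2 fold change -0.85 ± 0.19, edgeR adjusted p = 0.00362). Of the activators, E2f1 was at 14.2 ± 5.85 CPM in Th1 cells, 21.4 ± 8.47 in Th17 cells and 15.2 ± 2.89 in Tfh cells. E2f2 stood at 99.8 ± 23.7 CPM in Th1 cells, 82.8 ± 14.9 in Th17 cells and 75.1 ± 13.0 in Tfh cells, and E2f3 at 47.1 ± 3.03 CPM in Th1 cells, 49.5 ± 6.79 in Th17 cells and 45.6 ± 3.07 in Tfh cells. E2f2 passed as lower in Tfh than in Th1 with DESeq2 (adjusted p = 0.0347) and, among other alternatives, with RLE factors (edgeR adjusted p = 0.0454). E2f1 passed as higher in Th17 than in Th1 with the GC correction (0.60, edgeR adjusted p = 0.00967). With the same correction E2f2 passed as lower in Th17 than in Th1 (-0.28, edgeR adjusted p = 0.0201).

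The pocket protein gene Rbl1 (gene ID 19650; chromosome 2, 157145893 to 157204534), which encodes the p107 protein and is itself an E2F target, was at 223, 168, 139, 146 and 169 CPM in the Th1 libraries, 183, 186, 169.7, 129 and 160.0 in Th17 and 100.0, 148, 115, 103 and 115 in Tfh. It fell 1.45-fold in Tfh against Th1 (log2 fold change -0.54 ± 0.15, edgeR adjusted p = 0.00652) and 1.42-fold against Th17 (log2 fold change -0.51 ± 0.15, edgeR adjusted p = 0.0260). The call against Th17 was lost without any single one of Th17 replicates 1, 2, 3 and 5, and Tfh replicates 1, 3, 4 and 5 (edgeR adjusted p from 0.0535 to 0.0663). Rb1, which encodes RB, was at 351, 249.7, 158, 139 and 209 CPM in the Th1 libraries, 290.4, 334, 231, 160.2 and 188 in Th17 and 227, 402, 279, 199.7 and 292 in Tfh. It varied within every condition and was the one gene of the 47 with its highest mean in Tfh. It did not pass in the fit of all libraries, but passed as higher in Tfh than in Th1 with the GC correction (0.34, edgeR adjusted p = 0.0193).

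All 5 origin licensing genes fell in Tfh against Th1 (25.2% of all genes tested fell), and 4 of them fell against Th17 (9.98% of all genes tested fell). Orc1 (gene ID 18392; chromosome 4, 108575705 to 108616030), the ATPase subunit of the origin recognition complex, was at 33.6, 28.6, 42.7, 46.3 and 40.5 CPM in the Th1 libraries, 29.2, 26.2, 26.9, 25.9 and 32.3 in Th17 and 6.18, 12.7, 18.5, 11.7 and 11.1 in Tfh. The Tfh libraries lay below every other library. Orc1 fell 3.15-fold against Th1 (log2 fold change -1.66 ± 0.22, edgeR adjusted p = 5.75e-06) and 2.31-fold against Th17 (log2 fold change -1.21 ± 0.22, edgeR adjusted p = 0.000873). Orc6 (gene ID 56452; chromosome 8, 85299632 to 85308279), another subunit, was at 111, 89.1, 65.9, 74.8 and 105 CPM in the Th1 libraries, 103, 83.1, 102, 64.6 and 82.4 in Th17 and 33.0, 52.2, 45.0, 39.2 and 39.7 in Tfh. Again no Tfh library reached the lowest of the others, with falls of 2.13-fold (log2 fold change -1.09 ± 0.18, edgeR adjusted p = 4.87e-05) and 2.08-fold (log2 fold change -1.06 ± 0.18, edgeR adjusted p = 0.000372).

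Cdc6, the loader that joins ORC, was at 51.1, 48.5, 53.0, 57.2 and 61.3 CPM in the Th1 libraries, 61.0, 58.0, 65.2, 65.9 and 75.8 in Th17 and 8.50, 37.1, 44.2, 32.0 and 34.6 in Tfh. Tfh replicate 1 was lowest by a wide margin, but the other 4 Tfh libraries also lay below all Th1 and Th17 libraries. Cdc6 fell 1.72-fold against Th1 (log2 fold change -0.78 ± 0.26, edgeR adjusted p = 0.0195) and 2.07-fold against Th17 (log2 fold change -1.05 ± 0.26, edgeR adjusted p = 0.00993). Without Tfh replicate 1 the log2 fold changes were -0.55 and -0.82. Gmnn, whose product geminin blocks CDT1, was at 82.1 ± 21.9 CPM in Th1 cells, 91.1 ± 28.2 in Th17 cells and 43.2 ± 11.3 in Tfh cells. Its mRNA fell against Th1 (log2 fold change -0.92 ± 0.24, edgeR adjusted p = 0.00351) and against Th17 (log2 fold change -1.07 ± 0.24, edgeR adjusted p = 0.00411). Cdt1 was at 72.3 ± 23.6 CPM in Th1 cells, 54.5 ± 14.1 in Th17 cells and 39.9 ± 11.6 in Tfh cells. Cdt1 fell against Th1 (log2 fold change -0.86 ± 0.24, edgeR adjusted p = 0.00632) and did not pass against Th17 (edgeR adjusted p = 0.228). None of the 5 genes was called between Th17 and Th1 in the edgeR fit of all libraries (1 at an unadjusted p under 0.05, 1 with DESeq2 and 0 with limma-voom). Orc1 was lower in Th17 with DESeq2 (adjusted p = 0.0402), in a fit of the 2 conditions alone (edgeR adjusted p = 0.0379), without Tfh replicate 1 (edgeR adjusted p = 0.0482) and with the GC correction (edgeR adjusted p = 0.0478). Cdt1 was lower in Th17 than in Th1 (edgeR adjusted p = 0.0153) and in Tfh than in Th17 (edgeR adjusted p = 0.0131) with the GC correction.

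All 6 genes of the MCM2-7 ring ranked Th17, then Tfh, then Th1 by their means. Mcm2 (gene ID 17216; chromosome 6, 88883474 to 88898780) was at 48.4, 64.1, 93.0, 94.7 and 86.2 CPM in the Th1 libraries, 163, 124, 161, 187 and 178 in Th17 and 81.3, 96.4, 124, 151 and 104 in Tfh. Mcm3 (gene ID 17215; chromosome 1, 20802966 to 20820312) was at 187, 181, 234, 219.8 and 198 CPM in the Th1 libraries, 432, 349, 442, 528 and 432 in Th17 and 378, 236, 315, 310.1 and 285 in Tfh. Mcm6 (gene ID 17219; chromosome 1, 128331575 to 128359705) was at 368, 358, 403, 369 and 419 CPM in the Th1 libraries, 696, 601, 673, 662 and 664 in Th17 and 652, 499, 528, 565 and 585 in Tfh. For Mcm3 and Mcm6 every Tfh and Th17 library lay above every Th1 library. For Mcm2, Th17 lay above Th1 without overlap, and 1 Th17 library lay among the Tfh values. Mcm4 was at 267 ± 30.2 CPM in Th1 cells, 415 ± 44.3 in Th17 cells and 289 ± 51.2 in Tfh cells. Mcm5 was at 102 ± 14.04 CPM in Th1 cells, 170.2 ± 19.4 in Th17 cells and 114 ± 12.1 in Tfh cells. Mcm7 was at 100.0 ± 17.8 CPM in Th1 cells, 157 ± 24.2 in Th17 cells and 111 ± 19.2 in Tfh cells.

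Against Th1, all 6 ring genes rose in Th17 (19.0% of all genes tested rose), from 1.55-fold for Mcm4 (log2 fold change 0.63 ± 0.14, edgeR adjusted p = 0.00119) to 2.14-fold for Mcm3 (log2 fold change 1.10 ± 0.14, edgeR adjusted p = 4.28e-06). In Tfh against Th1, Mcm3 (log2 fold change 0.58 ± 0.14, edgeR adjusted p = 0.00180) and Mcm6 (log2 fold change 0.56 ± 0.10, edgeR adjusted p = 0.000160) rose. Mcm2 rose too (log2 fold change 0.53 ± 0.19, edgeR adjusted p = 0.0313), but not without any single one of Th1 replicates 1 and 2, and Tfh replicates 3 and 4 (edgeR adjusted p from 0.0708 to 0.104). Mcm4, Mcm5 and Mcm7 did not pass there. In Tfh against Th17, Mcm3 (log2 fold change -0.52 ± 0.14, edgeR adjusted p = 0.0130), Mcm4 (log2 fold change -0.52 ± 0.14, edgeR adjusted p = 0.0127), Mcm5 (log2 fold change -0.57 ± 0.13, edgeR adjusted p = 0.00426) and Mcm7 (log2 fold change -0.50 ± 0.16, edgeR adjusted p = 0.0355) fell. The Mcm7 call was lost without any single one of Th1 replicate 5, Th17 replicates 1, 3, 4 and 5, and Tfh replicates 2, 3 and 5 (edgeR adjusted p from 0.0514 to 0.102). Mcm2 (-0.54 ± 0.19, edgeR adjusted p = 0.0618) and Mcm6 (edgeR adjusted p = 0.157) did not pass, but Mcm2 passed with DESeq2 (adjusted p = 0.0475).

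Of the genes whose products activate the ring or join it, Cdc45, Gins2 and Mcm10 had their lowest means in Tfh, while Gins1 had the order of the ring genes. Cdc45 (gene ID 12544; chromosome 16, 18780447 to 18811972) was at 59.9, 82.1, 86.2, 89.5 and 72.5 CPM in the Th1 libraries, 70.7, 73.9, 82.4, 72.7 and 73.4 in Th17 and 46.4, 35.7, 34.0, 42.7 and 36.3 in Tfh. Mcm10 (gene ID 70024; chromosome 2, 4990724 to 5012791) was at 44.4, 45.0, 68.8, 65.0 and 63.5 CPM in the Th1 libraries, 50.9, 57.7, 54.7, 66.6 and 53.5 in Th17 and 31.9, 21.0, 29.0, 27.4 and 32.7 in Tfh. For both genes all Tfh libraries lay below all Th1 and Th17 libraries, and Th1 and Th17 overlapped. Cdc45 fell 2.01-fold against Th1 (log2 fold change -1.004 ± 0.14, edgeR adjusted p = 7.28e-06) and 1.92-fold against Th17 (log2 fold change -0.94 ± 0.14, edgeR adjusted p = 0.000114). Mcm10 fell 2.02-fold (log2 fold change -1.02 ± 0.16, edgeR adjusted p = 4.56e-05) and 1.996-fold (log2 fold change -0.997 ± 0.16, edgeR adjusted p = 0.000322). Gins2 was at 49.7 ± 14.8 CPM in Th1 cells, 57.6 ± 5.64 in Th17 cells and 27.2 ± 7.27 in Tfh cells. Gins2 fell likewise against Th1 (log2 fold change -0.87 ± 0.21, edgeR adjusted p = 0.00204) and Th17 (log2 fold change -1.08 ± 0.21, edgeR adjusted p = 0.00139). Gins1 was at 18.9 ± 6.21 CPM in Th1 cells, 34.4 ± 7.19 in Th17 cells and 20.5 ± 1.68 in Tfh cells. It rose in Th17 against Th1 (log2 fold change 0.87 ± 0.21, edgeR adjusted p = 0.00300) and fell from Th17 to Tfh (log2 fold change -0.74 ± 0.21, edgeR adjusted p = 0.0194), a call lost without either Th17 replicate 1 or Tfh replicate 5 (edgeR adjusted p 0.0504 and 0.0619).

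The summed CPM of Mcm2 to Mcm7 was 1134 ± 105 in Th1, 2001 ± 163 in Th17 and 1497 ± 105 in Tfh. That of Cdc45, Gins1, Gins2 and Mcm10 was 204 ± 30.4 in Th1, 223 ± 4.80 in Th17 and 115 ± 10.8 in Tfh. The ratio of the first to the second sum was 6.34, 5.45, 5.21, 5.15 and 5.89 in the Th1 libraries, 9.54, 7.96, 8.79, 9.39 and 9.08 in Th17 and 13.0, 13.4, 13.6, 12.9 and 12.3 in Tfh. The 3 conditions did not overlap in this ratio, with Th1 lowest and Tfh highest. Over the sum of Orc1, Orc6, Cdc6 and Cdt1 the ring stood at 4.47 ± 0.204 in Th1, 8.52 ± 0.561 in Th17 and 12.3 ± 2.90 in Tfh, the last from 10.2 to 17.3. The highest of these was Tfh replicate 1, where Cdc6 and Orc1 were lowest. These sums were chosen after the values of their genes were seen and were not tested.

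**Figure D4:**
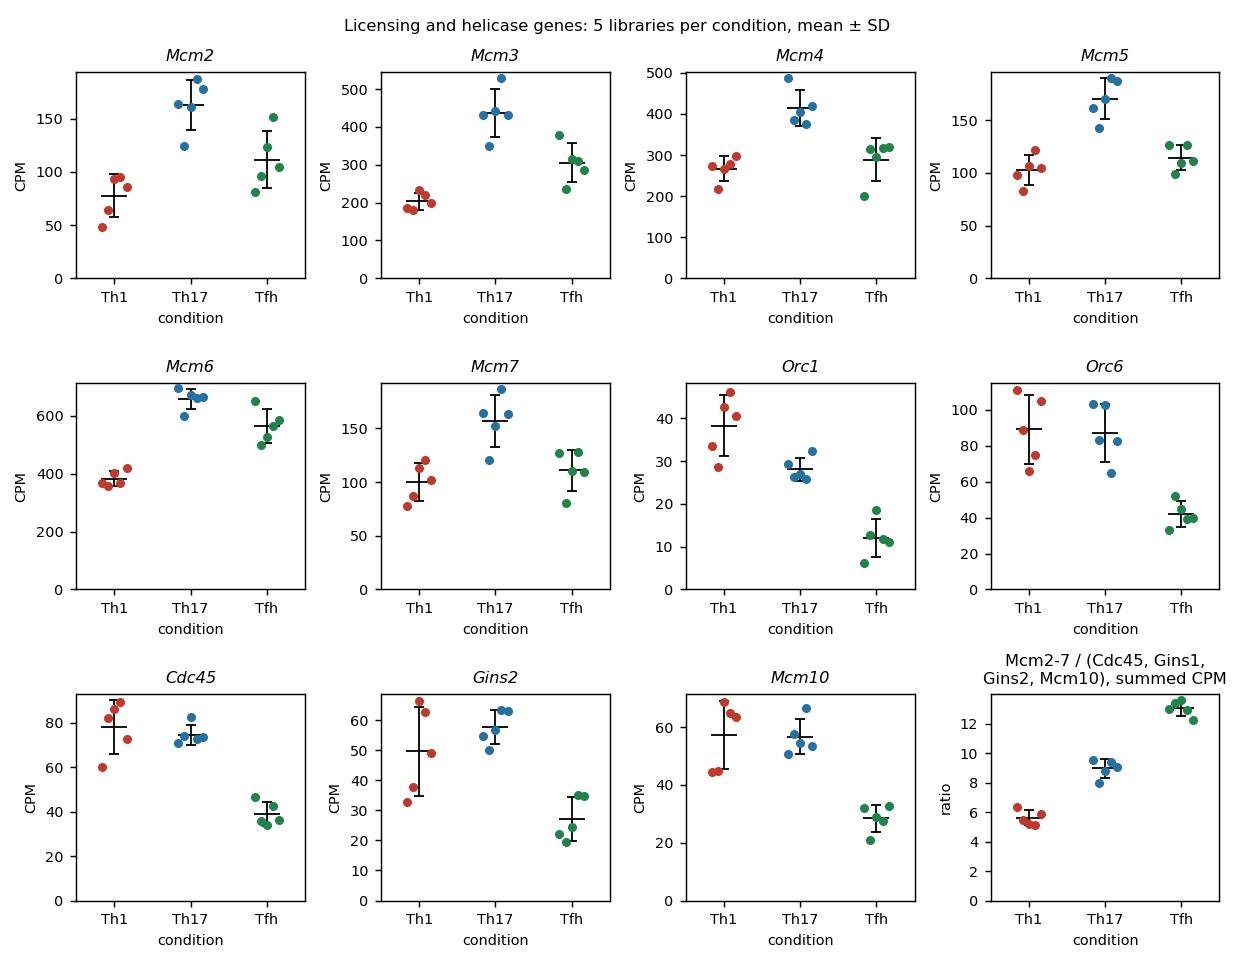
CPM of the 6 ring genes and of 5 licensing and helicase partner genes in each of 5 libraries per condition (points), with mean and SD (bars), and in the last panel the ratio of the summed CPM of Mcm2 to Mcm7 to that of Cdc45, Gins1, Gins2 and Mcm10. By their means, the ring genes stand lowest in Th1 and the partner genes shown stand lowest in Tfh. The Th1 and Tfh points overlap for Mcm2, Mcm4, Mcm5, Mcm7 and Gins2. The ratio is about 5.61 in Th1, 8.95 in Th17 and 13.0 in Tfh.

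At the replication fork, all 8 genes fell in Tfh against Th17 (9.98% of all genes tested fell). Pcna (gene ID 18538; chromosome 2, 132249286 to 132253180), the sliding clamp, was at 207, 162, 168, 153 and 196 CPM in the Th1 libraries, 232, 218, 211, 178 and 195 in Th17 and 87.5, 133, 128, 108 and 125 in Tfh. Its Tfh libraries lay below every other library, and it fell 1.52-fold against Th1 (log2 fold change -0.60 ± 0.14, edgeR adjusted p = 0.00110) and 1.78-fold against Th17 (log2 fold change -0.83 ± 0.14, edgeR adjusted p = 0.000304). Rfc3 (gene ID 69263; chromosome 5, 151642817 to 151651208), a subunit of the clamp loader, was at 67.9, 66.0, 82.6, 94.0 and 78.5 CPM in the Th1 libraries, 67.4, 57.0, 70.9, 68.0 and 79.8 in Th17 and 28.8, 31.2, 27.8, 37.5 and 38.5 in Tfh. It fell 2.37-fold against Th1 (log2 fold change -1.25 ± 0.15, edgeR adjusted p = 1.14e-06) and 2.09-fold against Th17 (log2 fold change -1.06 ± 0.15, edgeR adjusted p = 6.01e-05), again with no overlap. Another subunit gene, Rfc4, was at 28.5 ± 7.75 CPM in Th1 cells, 33.3 ± 8.91 in Th17 cells and 20.4 ± 5.23 in Tfh cells. Rfc4 fell against Th17 by the narrowest margin of all calls (log2 fold change -0.71 ± 0.24, edgeR adjusted p = 0.04999). The Rfc4 call was lost without any single one of Th1 replicates 2 and 5, Th17 replicates 1, 2, 3 and 5, and Tfh replicates 1, 3, 4 and 5 (edgeR adjusted p from 0.0551 to 0.145), and with RLE factors, library size only, no filter, the strict filter and limma-voom.

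Pole, the catalytic subunit of the leading-strand polymerase, was at 94.3 ± 18.7 CPM in Th1 cells, 95.8 ± 13.5 in Th17 cells and 54.5 ± 10.3 in Tfh cells. It fell in Tfh against Th1 (log2 fold change -0.80 ± 0.17, edgeR adjusted p = 0.000706) and Th17 (log2 fold change -0.82 ± 0.17, edgeR adjusted p = 0.00237). Prim1, the primase, was at 169 ± 53.2 CPM in Th1 cells, 167 ± 38.7 in Th17 cells and 90.2 ± 12.7 in Tfh cells. Prim1 fell against Th1 (log2 fold change -0.90 ± 0.20, edgeR adjusted p = 0.00119) and Th17 (log2 fold change -0.88 ± 0.20, edgeR adjusted p = 0.00524). Pola1, whose product works with the primase, was at 41.9 ± 17.5 CPM in Th1 cells, 62.2 ± 11.9 in Th17 cells and 37.7 ± 6.60 in Tfh cells. Pola1 fell against Th17 (log2 fold change -0.72 ± 0.24, edgeR adjusted p = 0.0438). That call was lost without any single one of Th1 replicates 2 and 5, Th17 replicates 1, 2, 3 and 5, and Tfh replicates 1, 2, 3, 4 and 5 (edgeR adjusted p from 0.0509 to 0.102), and with RLE factors, library size only and the strict filter. Lig1, the ligase that joins Okazaki fragments, was at 149 ± 27.6 CPM in Th1 cells, 149 ± 15.6 in Th17 cells and 89.1 ± 18.9 in Tfh cells. Lig1 fell against Th1 (log2 fold change -0.74 ± 0.16, edgeR adjusted p = 0.000939) and Th17 (log2 fold change -0.75 ± 0.16, edgeR adjusted p = 0.00345). Fen1, the flap nuclease of the same step, was at 26.2, 36.1, 40.0, 46.5 and 43.4 CPM in the Th1 libraries, 78.1, 49.3, 82.2, 74.9 and 78.4 in Th17 and 53.3, 38.5, 40.7, 49.9 and 35.9 in Tfh. All 5 Th17 libraries of Fen1 lay above all Th1 libraries, and it rose in Th17 against Th1 (log2 fold change 0.91 ± 0.18, edgeR adjusted p = 0.000512) and fell from Th17 to Tfh (log2 fold change -0.73 ± 0.18, edgeR adjusted p = 0.00793). In the fit of all libraries it was the only fork gene called between Th17 and Th1, where Pola1 was also called with limma-voom, with the GC correction and without either Th1 replicate 1 or Th17 replicate 4 (edgeR adjusted p 0.00724 and 0.0471).

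All 5 nucleotide suppliers fell in Tfh against Th17 (9.98% of all genes tested fell) without overlap between the libraries, with a median of -1.13 on the log2 scale. Rrm2 (gene ID 20135; chromosome 12, 24708254 to 24714146), the S phase subunit of ribonucleotide reductase, was at 267, 228, 265, 248 and 278 CPM in the Th1 libraries, 463, 348, 371, 373 and 403 in Th17 and 113, 127, 165, 179.7 and 219 in Tfh. The Th17 libraries stood above Th1 and the Tfh libraries below it, with no overlap. Rrm2 rose 1.52-fold in Th17 against Th1 (log2 fold change 0.61 ± 0.15, edgeR adjusted p = 0.00413), fell 1.596-fold in Tfh against Th1 (log2 fold change -0.67 ± 0.15, edgeR adjusted p = 0.00129) and fell 2.43-fold in Tfh against Th17 (log2 fold change -1.28 ± 0.15, edgeR adjusted p = 1.49e-05). Tyms (gene ID 22171; chromosome 5, 30038546 to 30073645), thymidylate synthase, was at 57.0, 51.6, 62.4, 66.5 and 76.7 CPM in the Th1 libraries, 109, 117, 108, 99.0 and 112 in Th17 and 42.3, 39.1, 43.7, 50.5 and 56.5 in Tfh. It rose 1.73-fold in Th17 (log2 fold change 0.79 ± 0.14, edgeR adjusted p = 0.000138) and fell 2.35-fold from Th17 to Tfh (log2 fold change -1.23 ± 0.14, edgeR adjusted p = 7.44e-06). It also fell from Th1 to Tfh (log2 fold change -0.44 ± 0.14, edgeR adjusted p = 0.0129), with overlap between those libraries.

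Rrm1, the large subunit, was at 336 ± 48.2 CPM in Th1 cells, 509.7 ± 57.2 in Th17 cells and 277 ± 27.9 in Tfh cells. It rose in Th17 against Th1 (log2 fold change 0.60 ± 0.12, edgeR adjusted p = 0.000789) and fell from Th17 to Tfh (log2 fold change -0.88 ± 0.12, edgeR adjusted p = 7.68e-05). Dut (gene ID 110074; chromosome 2, 125247248 to 125259049), which keeps dUTP out of DNA, was at 137, 144, 123, 139 and 150.2 CPM in the Th1 libraries, 276, 214, 263, 222 and 290.1 in Th17 and 105, 125, 138, 113 and 127 in Tfh. The 5 Th17 libraries lay above all others, a 1.82-fold rise against Th1 (log2 fold change 0.87 ± 0.12, edgeR adjusted p = 1.26e-05) and a 2.08-fold fall from Th17 to Tfh (log2 fold change -1.05 ± 0.12, edgeR adjusted p = 8.76e-06). Tk1, the salvage kinase for thymidine, was at 37.0, 42.2, 65.9, 63.4 and 53.6 CPM in the Th1 libraries, 54.8, 41.7, 54.0, 63.8 and 63.6 in Th17 and 22.4, 18.6, 28.5, 30.2 and 26.6 in Tfh. Tk1 did not pass between Th17 and Th1, and fell 2.07-fold in Tfh against Th1 (log2 fold change -1.05 ± 0.19, edgeR adjusted p = 0.000139) and 2.19-fold against Th17 (log2 fold change -1.13 ± 0.19, edgeR adjusted p = 0.000369).

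Histone supply and chromatin assembly were covered by 3 genes. Slbp (gene ID 20492; chromosome 5, 33640055 to 33652574), whose product binds the stem-loop of replication histone mRNAs, was at 93.5, 97.7, 119, 99.2 and 109.8 CPM in the Th1 libraries, 194, 174, 212, 202 and 213 in Th17 and 83.4, 129.6, 150.2, 141 and 155 in Tfh. Th17 libraries lay above all others. Slbp rose 1.91-fold against Th1 (log2 fold change 0.94 ± 0.15, edgeR adjusted p = 5.80e-05) and fell 1.51-fold from Th17 to Tfh (log2 fold change -0.59 ± 0.15, edgeR adjusted p = 0.00891). Chaf1a and Chaf1b encode subunits of the chromatin assembly factor CAF-1, which puts histones on new DNA. Chaf1b was at 32.6 ± 8.66 CPM in Th1 cells, 46.5 ± 8.99 in Th17 cells and 36.8 ± 3.45 in Tfh cells. It rose in Th17 against Th1 (log2 fold change 0.51 ± 0.18, edgeR adjusted p = 0.0343), but not without any single one of Th1 replicates 1, 2 and 5, Th17 replicates 1, 3, 4 and 5, and Tfh replicates 3 and 5 (edgeR adjusted p from 0.0544 to 0.132), nor with RLE factors, the strict filter or a fit of the 2 conditions alone. Chaf1a, at 36.0 ± 6.26 CPM in Th1 cells, 43.6 ± 7.84 in Th17 cells and 30.3 ± 7.49 in Tfh cells, did not pass in any comparison, but passed as lower in Tfh than in Th17 with the GC correction (edgeR adjusted p = 0.0456), without Th17 replicate 2 (edgeR adjusted p = 0.0279) and without Tfh replicate 1 (edgeR adjusted p = 0.0321). None of the 3 genes was called between Tfh and Th1 in the edgeR fit with TMM factors, DESeq2 or limma-voom (1 at an unadjusted p under 0.05). Slbp was called higher in Tfh with library size only (0.40, edgeR adjusted p = 0.0295) and without Tfh replicate 1 (0.47, edgeR adjusted p = 0.00260).

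A further 61 genes of G1/S and replication, listed with the first 47, were compared in the same way. Between Tfh and Th17, 30 fell, 31 did not pass and 0 rose in edgeR (1 at an unadjusted p under 0.05, 0 with DESeq2 and 0 with limma-voom), with a median of -0.53 (9.98% of all genes fell). With log2 fold changes ± SE in brackets and all named genes called, Dscc1, of a clamp loader, was lower by 2.61-fold (-1.39 ± 0.30), Shmt1, of folate metabolism, by 2.40-fold (-1.26 ± 0.22), and Ticrr, which helps CDC45 onto origins, by 2.33-fold (-1.22 ± 0.15). Between Tfh and Th1, 29 fell, 4 rose and 28 did not pass, with a median of -0.41 (25.2% of all genes fell and 24.1% rose). Of the 61, 2 rose without Tfh replicate 2. Dctd, a deaminase of nucleotide supply, fell 3.28-fold (-1.71 ± 0.24), Ticrr 2.61-fold (-1.38 ± 0.15) and Mcm8 2.30-fold (-1.20 ± 0.30). The nucleoside kinase Dck rose 2.36-fold (1.24 ± 0.18) and Rpa1, which coats single-stranded DNA, 1.81-fold (0.85 ± 0.11). Between Th17 and Th1, 11 rose, 3 fell and 47 did not pass (19.0% of all genes rose and 17.8% fell, so the count that rose is near the background), with a median of 0.18, and 7 rose without any single one of Th1 replicates 3 and 4 and Th17 replicates 1 and 5. Dck rose 2.73-fold (1.45 ± 0.18), the histone chaperone Asf1b 2.15-fold (1.11 ± 0.17) and Fbxo5 1.85-fold (0.89 ± 0.18), while the dNTP hydrolase Samhd1 fell 2.16-fold (-1.11 ± 0.14), Dctd 2.05-fold (-1.04 ± 0.24) and Rnaseh2a 1.85-fold (-0.89 ± 0.23).

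Set beside the 47 were 30 genes of G2 and mitosis. Between Tfh and Th17, 29 of 30 fell, with a median of -1.11 (9.98% of all genes fell). Between Tfh and Th1 29 of 30 fell as well, with a median of -1.08 (25.2% of all genes fell). None rose in either with edgeR, DESeq2 or limma-voom, nor at an unadjusted p under 0.05. Mad2l1 fell 3.05-fold (-1.61 ± 0.22) and Aurka 2.97-fold (-1.57 ± 0.21) against Th1, and Bub1 2.60-fold (-1.38 ± 0.23) and Aurkb 2.53-fold (-1.34 ± 0.18) against Th17. Between Th17 and Th1, 3 of 30 rose, a share below the 19.0% over all genes, 1 fell (17.8% over all genes) and the median was 0.02, while 17 of the 47 rose with a median of 0.28. The difference between the lists was not tested. Of the CDK inhibitors, which block the kinases of the same step, Cdkn1a was at 507 ± 117 CPM in Th1 cells, 93.9 ± 20.3 in Th17 cells and 31.7 ± 6.50 in Tfh cells. It thus fell 5.40-fold (-2.43 ± 0.19) in Th17 and 15.9-fold (-4.00 ± 0.20) in Tfh against Th1, and 2.95-fold (-1.56 ± 0.19) in Tfh against Th17. Cdkn1b was at 103 ± 33.0 CPM in Th1 cells, 174 ± 32.2 in Th17 cells and 209 ± 38.6 in Tfh cells. Against Th1, Cdkn1b rose 2.02-fold (1.02 ± 0.20) in Tfh and 1.68-fold (0.75 ± 0.20) in Th17, the latter with overlap between the libraries. Cdkn2c rose 2.11-fold (1.08 ± 0.29) in Th17 and 2.08-fold (1.06 ± 0.29) in Tfh against Th1, the latter not with the GC correction (edgeR adjusted p = 0.0522). Of the 7 CDK inhibitor genes listed, 5 could be tested. Of these, 3 rose and 1 fell in Th17 against Th1, where 19.0% and 17.8% of all genes did. The counts were also 3 and 1 in Tfh against Th1, where the shares were 24.1% and 25.2%, and limma-voom called 2 rises there. In both comparisons the 3 include a gene with few counts, at mean CPM of 0.143 in Th1, 1.44 in Th17 and 0.857 in Tfh. Of the 5, 1 fell in Tfh against Th17 while 0 rose there with edgeR, DESeq2 or limma-voom, or at an unadjusted p under 0.05.

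**Figure D5:**
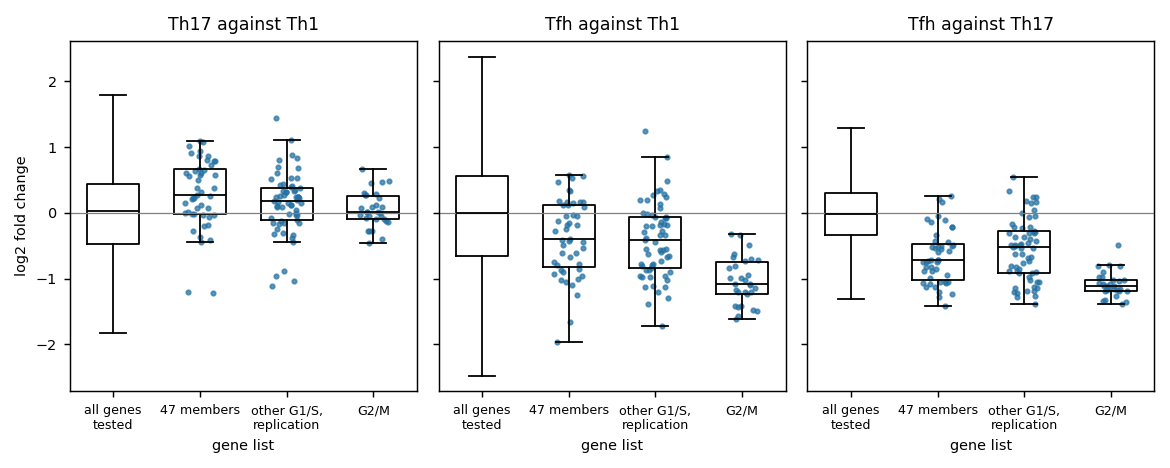
Log2 fold changes of all genes tested, the 47 genes, 61 other G1/S and replication genes and 30 G2 and mitotic genes in each comparison, with boxes for quartiles, whiskers to the farthest gene within 1.5 box lengths, and points for single genes of the 3 lists. In Tfh against Th17 all 3 lists lie mostly below 0, with medians of -0.72, -0.53 and -1.11, and in Th17 against Th1 the 47 genes have a median of 0.28 and the mitotic genes 0.02.

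The ratios and sums given above used CPM with no regard to gene length. Other levels of different genes were compared per kb of the longest GENCODE transcript matched to RefSeq, without measuring which isoform was used. On that scale the D cyclin genes of Th1 libraries stood at 219 ± 64.1 CPM per kb for Ccnd3, 173 ± 7.88 for Ccnd2 and 0.383 ± 0.2999 for Ccnd1. In Th17 the order was the same, with 95.0 ± 19.3 for Ccnd3 and 74.4 ± 4.65 for Ccnd2. In Tfh Ccnd2 stood first, with 88.6 ± 9.43 for Ccnd2 and 56.3 ± 9.51 for Ccnd3. This order depends on the length used. The transcripts taken were 2.113 kb for Ccnd3 and 6.33 kb for Ccnd2. All annotated exons together span 8.775 kb for Ccnd3 and 9.409 kb for Ccnd2, and per kb of those Ccnd2 stood above Ccnd3 in every condition. Cdk4 stood at 209 CPM per kb in Th1, 273 in Th17 and 234 in Tfh, against 3.76, 5.56 and 5.20 for Cdk6. The ring subunits, which act in equal numbers, fell in 2 groups of transcript level in Th17: Mcm6 (151 ± 8.09), Mcm3 (144 ± 20.9) and Mcm4 (116 ± 12.3) above Mcm7 (53.1 ± 8.17), Mcm5 (50.4 ± 5.75) and Mcm2 (48.3 ± 7.06). The same 3 genes led in Th1, from 67.3 to 88.0 CPM per kb against 22.9 to 33.8, and in Tfh, from 80.6 to 129.9 against 33.0 to 37.5. Of the E2F genes, E2f8 stood highest in Th17 (26.7 CPM per kb, with E2f2 at 17.5), and E2f2 in Th1 (21.1, with E2f8 at 16.7) and in Tfh (15.8, with E2f8 at 14.8).

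Replicates of a condition differed in step with the GC content of transcripts, to an extent that varied between libraries. Across genes, the deviation of a library from its condition followed transcript GC with a Spearman's rho from -0.65 in Th1 replicate 1 to 0.70 in Th1 replicate 4, and genes are not independent replicates. The trend was weak in some libraries, such as Tfh replicates 1 (0.05) and 3 (-0.09). Transcript GC of the 47 genes ran from 36.3% for Ccne2 to 58.3% for E2f1, with a median of 49.3%, against 49.6% over the genes tested that had a value. Rb1, at 41.2% GC, was lowest in Th1 replicates 3 and 4 within its condition, where Ccnd3 (56.7%) and Cdt1 (57.8%) were highest. With levels corrected for this trend, a choice made after seeing the data, no call among the 47 genes was lost and 16 were gained. The calls were then 21 higher and 6 lower in Th17 against Th1, 5 and 24 in Tfh against Th1, and 1 and 36 in Tfh against Th17. Calls over all genes grew as well, from 2397 higher and 2245 lower to 2860 and 2862 in Th17 against Th1. In Tfh against Th1 they went from 3037 and 3169 to 3597 and 3613. In Tfh against Th17 they went from 856 and 1257 to 1710 and 1675. Over all genes, 40.5% of the calls in Tfh against Th17 were higher in Tfh, and 50.5% with the correction.

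Whether reads were counted by strand, and how reads with several matches were handled, is not given in the sources used here. On GRCm38, 16 of the 47 genes overlap another protein-coding gene, among them Ccnd3 (Bysl), Ccne2 (Ints8), Cdk4 (Tspan31), Orc1 (Prpf38a), Cdc45 (Ufd1), Mcm7 (Ap4m1), Fen1 (Tmem258) and Tk1 (Afmid). Ccnd3, Pcna and Tyms have named pseudogenes. Reads of these genes could be split or shared with the others, so their values are uncertain to that extent.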

How the data were processed

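Gene counts of 15 bulk RNA-seq libraries (5 each of Th1, Th17 and Tfh cells) were deposited by the authors in 1 table, and the 15 single-library files held the same values. Libraries were made with a SENSE mRNA kit from 100 ng RNA, per the labels' protocols, and reads were processed with STAR 2.7.2b and featureCounts 1.6.4 on mm10, per the submitters' processing notes. The counts were used as deposited, and 25275 of 27179 Entrez IDs, with 98.2% of counts, were named by the RefSeq gene table of GRCm38.p6.

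CPM were computed on TMM-scaled library sizes. After edgeR's low-count filter, which removed 5472 genes with counts, 12591 genes were tested with edgeR 4.0.16 (robust quasi-likelihood) in 1 fit of all libraries with no covariate, and p-values were adjusted by the Benjamini-Hochberg method. Calls were made at an adjusted p under 0.05. Within a condition any 2 libraries differed by more than sampling noise (lowest chi-square per gene 9.39). Exon lengths and transcript GC came from GENCODE, and promoter windows from RefSeq. The fitting steps were tested on simulated data. Alternatives were other scaling and filters, DESeq2 1.42.0, limma-voom (limma 3.58.1), a replicate block, fits of 2 conditions, leaving out each library and, chosen after seeing the data, a GC correction.

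The 47 genes and all lists were chosen with earlier results of these data known. Every one of the 47 could be named. From the other lists, up to 3 genes per direction and comparison could be named. They were taken from the 3 with the largest changes among genes called, without overlap between libraries and with at least 10 CPM in the higher condition. Not every such gene is named. A gene of the Th17 marker list is not reported here and was left out of its sum.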

Additional observations from a re-analysis of the deposited data

Results flagged for a closer look

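In 141 groups (each of the 47 genes in each condition), the highest or lowest of the 5 libraries was set against the others by Dixon's test, and 6 groups exceeded the critical value of 0.71. Chance alone gives about 1 in 20. In Tfh replicate 1, the shallowest library, Ccne2 was at 1.16 CPM against 13.97 to 18.8 in the other Tfh libraries, and Mcm4 at 199 CPM against 296 to 319.6. In Th17 replicate 2, Fen1 was at 49.3 CPM against 74.9 to 82.2, and Chaf1a at 29.9 CPM against 44.5 to 49.6. Cdc45 stood high in Th17 replicate 3, at 82.4 CPM against 70.7 to 73.9, and Pole stood high in Th17 replicate 4, at 119 CPM against 86.3 to 94.5.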

How the results depend on the processing

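Of 77 calls among the 47 genes (over the 3 comparisons), 66 held on leaving out each library in turn and 11 were lost at least once, with 2 to 8 calls lost per library. No called gene of the 47 changed direction under any alternative. In Th17 against Th1, 6 of the 47 were lower with the GC correction and 6 with it and the replicate block, and the median ranged from 0.22 to 0.38 on leaving out 1 library (0.38 without Th17 replicate 2). The other G1/S genes that rose ranged from 7 to 13 on leaving out 1 library (7 without any one of Th1 replicates 3 and 4 and Th17 replicates 1 and 5) and were 16 with the block, 14 with the GC correction and 16 with both. Those that fell numbered 5 with DESeq2, 5 with the GC correction and 7 with it and the block. In Tfh against Th1, 2 of the 47 rose in a fit of the 2 conditions alone and 2 to 5 on leaving out 1 library (2 without Th1 replicate 2), and 2 to 4 of the other G1/S genes rose (2 without Tfh replicate 2). In Tfh against Th17, of the 47, 1 rose with the strict filter, 1 with DESeq2, 1 with the GC correction and 2 with it and the block. Of the other G1/S genes 1 rose with the block, 2 with the GC correction, 2 with both and 0 to 1 on leaving out 1 library (1 without Th17 replicate 2). Over all genes there, 1710 rose with the GC correction, 1969 rose and 1979 fell with the block added, against 856 and 1257. The cause of these shifts was not tested.

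Equal replicate numbers are not stated to mark shared mice or cultures, and same-numbered libraries deviated together with correlations from -0.10 to 0.57, not each best with its own number. With the replicate block, 22 of the 47 were higher and 3 lower in Th17 against Th1, 5 and 24 in Tfh against Th1, and 0 and 35 in Tfh against Th17, with 12 calls gained and 0 lost. In Th17 against Th1, calls over all genes grew with the block as well, in both directions. The calls gained there were thus not particular to the 47. Depth limits Ccnd1, which lay near 1 CPM in all conditions.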
